A study of Mus musculus with 2 samples.

Results

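The promoters of the ribosomal protein genes were examined in DNase-seq of mouse midbrain, an assay in which DNase I cuts DNA that is not wrapped in nucleosomes and the cut ends are sequenced. Members were chosen by gene symbol alone: protein-coding genes of GENCODE M21 named Rpl or Rps followed by a digit, with Rplp0, Rplp1, Rplp2 and Rpsa, and without Rps6k kinases, symbols that contain "-ps" and symbols that end in "l". The rule found 81 genes of 21755 protein-coding genes on chromosomes 1 to 19 and X. Of these, 31 encode proteins of the small (40S) subunit, 46 encode proteins of the large (60S) subunit, and 4 are related genes that are no standard subunit protein (Rpl22l1, Rpl7l1, Rps19bp1 and Rps27rt). Tissue came from embryos of strain B6NCrl at embryonic day 11.5, with males and females pooled, in 1 group of 2 biological replicates. No untreated, mutant or other tissue group was compared, so every value below is a description of these 2 libraries, and no test was made. The replicates were sequenced on different sets of Illumina instruments, and replicate and sequencing batch cannot be told apart.

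Ribosomal proteins coat the ribosomal RNA and are needed in near equal numbers, so their genes are active in all dividing cells and are usually counted among housekeeping genes. Their messenger RNAs begin with a run of pyrimidines, the 5′ terminal oligopyrimidine (TOP) tract, through which mTOR signalling controls their translation. Transcription starts at a pyrimidine-rich initiator, the TCT initiator, in place of the common initiator and often without a TATA box, and binding sites for ETS factors such as GABP, for Sp1 and for YY1 are known from many of these promoters. Neural progenitors of the midbrain divide fast at this stage and make many ribosomes.

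The TCT initiator, the start that these genes are known for, is shown here for the 14 members in which 1 of 4 words (CTTTCC, its variants CTTTTC and CTTTCT, or CTTTTT, on the gene's strand) began within 10 bases of the RefSeq start. Capitals mark 1 such word per gene, and each line runs 5′ to 3′ over 35 bases of the gene's strand. The lines of Rpl7a, Rpl27a and Rpl35 hold a further listed word that is not marked. Sequences are from RefSeq on GRCm38.p6, the build of the mm10 peak lists, and 61 of the 81 members were in the promoter table.
Rps6: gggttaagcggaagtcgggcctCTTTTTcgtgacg
Rps10: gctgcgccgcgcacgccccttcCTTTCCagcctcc
Rps12: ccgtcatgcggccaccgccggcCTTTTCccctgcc
Rps27: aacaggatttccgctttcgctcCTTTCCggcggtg
Rps27rt: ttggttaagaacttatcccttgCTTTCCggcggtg
Rpl7a: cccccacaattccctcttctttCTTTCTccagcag
Rpl12: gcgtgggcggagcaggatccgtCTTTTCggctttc
Rpl13a: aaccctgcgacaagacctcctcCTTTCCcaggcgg
Rpl15: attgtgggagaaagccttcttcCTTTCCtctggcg
Rpl18: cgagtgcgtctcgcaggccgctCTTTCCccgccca
Rpl27a: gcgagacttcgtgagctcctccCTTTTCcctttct
Rpl28: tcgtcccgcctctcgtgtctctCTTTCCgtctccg
Rpl35: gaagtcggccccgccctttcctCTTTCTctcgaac
Rpl38: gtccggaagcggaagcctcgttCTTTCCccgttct
In Rpl38 and Rps27rt the first C of the word was the annotated first base itself. The marked words of the other members began between 1 base before it (Rpl7a) and 9 bases after it (Rpl13a and Rps12). Such a word stood in this place in 3.25% of 16433 coding promoters of the table, which held 1 promoter per gene.

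A second word was rare in the genome and repeated among the members: the palindromic box A word, known from vertebrate ribosomal protein promoters. It is shown in capitals within 40 bases for the 5 members whose RefSeq promoter (250 bases before to 50 after the start) held it.
Rps6: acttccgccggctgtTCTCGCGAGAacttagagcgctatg
Rps19: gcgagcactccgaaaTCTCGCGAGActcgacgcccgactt
Rpl10a: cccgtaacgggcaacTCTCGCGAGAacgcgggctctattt
Rpl12: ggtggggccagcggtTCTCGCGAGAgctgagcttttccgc
Rpl26: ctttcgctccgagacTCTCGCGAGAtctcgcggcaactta
The word began between 54 bases (Rpl12) and 8 bases (Rps19) before the start. It occurred in 0.730% of the 16433 promoters (120). Rps6 and Rpl12 held both this word and a TCT word. Box A began 51 and 54 bases before their starts, and the TCT word began 2 bases after the start in both.

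Promoters from both ends of the range of promoter signal, ranked as described below, are printed for comparison. The first 4 lines are from the 6 members with the highest signal rank and the last 3 from the lowest, each from 130 bases before to 20 bases from the RefSeq start, with the TCT words, the ETS word CCGGAA on either strand and box A in capitals.
Rpl18: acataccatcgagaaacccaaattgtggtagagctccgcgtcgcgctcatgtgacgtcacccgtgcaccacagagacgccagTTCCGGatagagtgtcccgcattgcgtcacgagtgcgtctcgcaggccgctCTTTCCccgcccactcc
Rpl27a: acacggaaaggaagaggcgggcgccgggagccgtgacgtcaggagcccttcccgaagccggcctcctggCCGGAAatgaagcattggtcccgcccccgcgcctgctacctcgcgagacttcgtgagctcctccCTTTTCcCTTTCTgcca
Rpl31: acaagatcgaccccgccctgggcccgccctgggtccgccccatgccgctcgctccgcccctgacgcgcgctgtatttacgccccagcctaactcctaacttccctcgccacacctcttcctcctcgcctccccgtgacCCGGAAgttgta
Rps19: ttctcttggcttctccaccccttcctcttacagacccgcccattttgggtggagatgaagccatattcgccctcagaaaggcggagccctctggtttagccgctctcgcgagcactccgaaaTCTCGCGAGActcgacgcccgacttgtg
Rps4x: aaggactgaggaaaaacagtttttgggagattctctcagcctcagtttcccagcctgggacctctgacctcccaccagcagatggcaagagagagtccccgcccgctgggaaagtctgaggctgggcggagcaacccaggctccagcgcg
Rpl6: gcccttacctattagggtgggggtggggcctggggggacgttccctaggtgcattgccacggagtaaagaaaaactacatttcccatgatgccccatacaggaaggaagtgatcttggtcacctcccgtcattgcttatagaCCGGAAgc
Rpl36a: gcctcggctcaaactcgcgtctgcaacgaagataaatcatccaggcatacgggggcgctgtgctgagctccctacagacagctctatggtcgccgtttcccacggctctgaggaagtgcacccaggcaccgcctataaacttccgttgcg
The Rpl18 bases are chr7:45717941-45718090 (plus strand), those of Rpl27a chr7:109519065-109519214 (plus), those of Rpl31 chr1:39367721-39367870 (plus) and those of Rps19 chr7:24884462-24884611 (plus). The Rps4x bases are chrX:102189372-102189521 (minus strand), those of Rpl6 chr5:121204371-121204520 (plus) and those of Rpl36a chrX:134585524-134585673 (plus). An ETS word stood in the lines of Rpl18, Rpl27a and Rpl31, and also in that of Rpl6, which ranked near the bottom. At Rpl31 the strongest peak covered 145 of these 150 bases in replicate 1 and 125 in replicate 2, and at Rpl36a it covered 138 and 142. At Rpl6 it covered 105 bases in replicate 1 and none in replicate 2, and at Rps19 it covered 124 and none. At Rpl18 it covered none in replicate 1 and 145 in replicate 2.

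Nearly every ribosomal protein gene had an accessible promoter in both replicates. A promoter was called accessible where a deposited peak lay within 500 bp of any transcription start site (TSS) of the gene's basic transcripts. This held for 80 of 81 members in both replicates (98.8%), against 65.5% of all coding genes. It also held for 80 members in replicate 1, against 68% of genes, and for 80 in replicate 2, against 69.5%. All 31 genes of the 40S subunit and all 46 of the 60S subunit were among them, and so were 3 of the 4 related genes. With peaks required within 150 bp of a TSS the count was 77 of 81, against 59.1% of genes.

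The exception was Rps27rt, a short copy of Rps27 on chromosome 9 that had no peak within 500 bp in either library. The gene spans 374 bp, and its CpG ratio (observed over expected CpG in 1000 bp around the 5′ end) was 0.408, the lowest of all members, against 0.893 at Rps27. Rps27 itself, a zinc-finger protein of the 40S subunit, had a signal of 126 in replicate 1 and 66 in replicate 2. In the lines above, both genes share the word and the bases after it. With the annotated starts aligned, 13 of 50 bases after the start and 66 of 250 before it were identical. With the copy moved by 1 base, 39 of 49 after the start and 53 of 249 before it were. Other offsets and gaps were not compared.

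The strength of an accessible promoter was read as the authors' signal value of its strongest TSS peak, a whole number with no stated normalization. Values were ranked within each replicate among all coding genes with a TSS peak there, and the ranks, as percentiles, were averaged over both replicates. Members had a median signal of 125 in replicate 1 (range 91 to 140) and of 76 in replicate 2 (53 to 90), while all coding genes with a TSS peak had 112 and 68. The members lay in the upper part of the distribution, yet few were at its top. Their median percentile was 68.7, against 54.1 for all genes with a peak in both replicates, and 71 of 80 were above 50, against 54.8% of genes. Above the 75th percentile were 33 members in replicate 1, against 25.4% of genes, and 21 in replicate 2, against 24.2%. Above the 90th were 7 members in replicate 1, against 10.4% of genes, and 3 in replicate 2, against 9.8%.

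In signal the members differed less among themselves than all genes did. The middle 50% of members spanned signals of 116 to 131 in replicate 1 and 71.8 to 82.2 in replicate 2, whereas the middle 50% of all genes with a peak spanned 79 to 127 and 50 to 81. At mitochondrial ribosomal protein genes it spanned 108.5 to 125 and 65 to 81.5, so in replicate 1 they were about as close together. As percentiles, the middle 50% of members ran from 55.4 to 84.4 in replicate 1 and from 56.3 to 77.4 in replicate 2. No member was below the 25th percentile in either replicate.

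**Figure D1:**
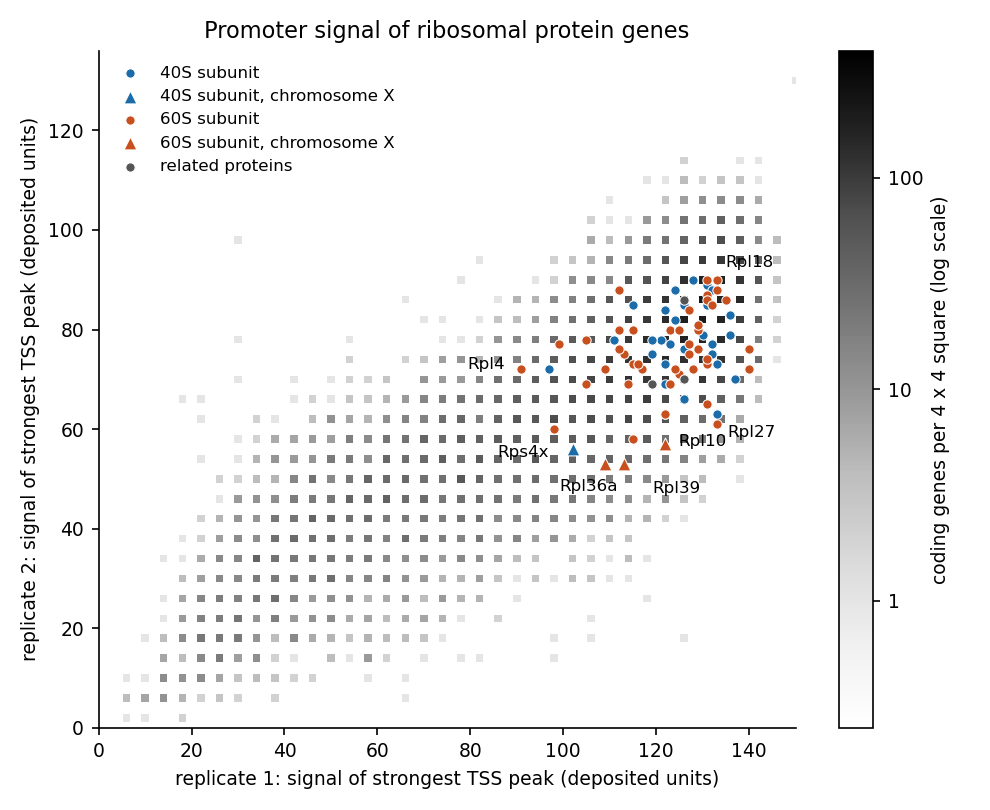
Signal of the strongest TSS peak in replicate 1 (horizontal axis, deposited units) and replicate 2 (vertical axis) for each ribosomal protein gene with peaks, over a grey density of the 14247 coding genes with a TSS peak in both replicates. Members lie between 91 and 140 in replicate 1 and between 53 and 90 in replicate 2, and the 4 genes on chromosome X (triangles) lie at 53 to 57 in replicate 2, below all autosomal members.

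Genes of the small subunit had a median signal of 126 in replicate 1 and 78 in replicate 2, and a median percentile of 73.1. The range was 97 to 137 and 56 to 90. Rps29, a small zinc-finger protein near the decoding site, had 132 and 88, and Rps19, the first gene linked to Diamond-Blackfan anaemia, had 131 and 89. Both were among the 6 members with the highest mean percentile (87.2 and 86.9). Rps4x, the X-linked form of the protein S4, had 102 and 56, the lowest mean percentile of all members (35.4). It stood apart from most of its subunit, since 29 of the 31 genes had a mean percentile above 50.

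Genes of the large subunit had medians of 124.5 and 75 and a median percentile of 64.0, and 39 of 46 were above 50. The highest were Rpl18 with 133 and 90, Rpl27a with 135 and 86, Rpl3 with 133 and 88 and Rpl31 with 131 and 90. The values of Rpl18 come from promoters 2700 bp apart. Its upstream promoter had 133 and 64 and its downstream promoter 127 and 90, which at that promoter alone is a mean percentile of 83.3, with 12 other members above it. Rpl3 lies close to the peptidyl transferase centre, and Rpl31 lies at the exit of the tunnel through which the new protein leaves. The lowest were Rpl6 with 98 and 60, Rpl36a with 109 and 53, Rpl39 with 113 and 53, Rpl4 with 91 and 72 and Rpl23a with 115 and 58. In replicate 1, Rpl4, whose long loop lines the exit tunnel, was the weakest member, but in replicate 2 it was above the median of all genes. The ranges of the 40S genes and the 60S genes overlapped over nearly their whole length.

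The 3 related genes with peaks were within the range of the subunit genes. Rpl22l1, a paralog of Rpl22, had 126 and 86. Rpl7l1, a paralog of Rpl7, had 119 and 69. Rps19bp1, a nucleolar protein named for binding Rps19, had 126 and 70.

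The 4 members on chromosome X had low mean ranks, and in replicate 2 their signals lay just below those of all autosomal members. Rpl10, which joins the 60S subunit late in its maturation, had 122 and 57, and the values of Rps4x, Rpl36a and Rpl39 are given above. In replicate 2 the highest of the 4 was 57 and the lowest autosomal member was at 58, so the groups did not overlap. In replicate 1 they overlapped, with medians of 111 for the X-linked and 125.5 for the autosomal members. There Rpl10 and Rpl39 were above the median of all coding genes with a TSS peak (112). None of the 4 had a mean percentile above 50, and their median was 38.5. All coding genes on chromosome X were also lower, with median signals of 90 and 42 against 113 and 69 on the autosomes, and 37 of the 470 with peaks in both replicates were above 50 (7.87%). The part of the chromosome in the low values of these 4 members was not tested. Without the X-linked members the median percentile was 69.2.

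Percentiles differed by more than 20 points between the libraries at 26 of 80 members, with the higher rank in replicate 1 at 18 and in replicate 2 at 8. The same was not counted over all coding genes, so these counts do not set the members apart. The 3 members with the largest difference all ranked higher in replicate 1. Rpl27, a 60S protein, had 133 in replicate 1 and 61 in replicate 2, which put it at the 88.5th and the 38.2nd percentile. Rps26, which lies at the exit of the messenger RNA channel, had 133 and 63. Rps2, which lies at the entry of that channel, had 137 and 70. Rpl7 is an example of the other direction, with 112 and 88, and it reached the 87.9th percentile in replicate 2.

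For most members the strongest peak was close to the same place in both libraries. Peaks were 150 bp wide and their starts fell on a grid of 20 bp, so positions are no finer than that. The strongest peaks of both replicates overlapped at 70 of 80 members (87.5%), against 79.6% of genes. At the other 10 the midpoints lay 160 to 2700 bp apart, the furthest at Rpl18, with 480 bp at Rps25 and 400 bp at Rps19. The strongest peaks had the same coordinates at 13 of 80 members, against 1991 of 14247 genes with a TSS peak in both, a similar share. Their midpoints lay within 40 bp at 55 members (68.8%), against 53.9% of genes. Rpl13a, a 60S protein that also takes part in silencing of inflammatory messenger RNAs, is an example of the same position, with chr7:45128816-45128965 and signals of 140 and 76. When a peak of replicate 1 was required to overlap any TSS peak of replicate 2 by 75 bp, 68 of 81 members passed, against 52.2% of genes.

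Strongest peaks lay within 100 bp of a start more often than over all genes, as they also did at genes of the mitochondrial ribosome. Offsets are given from the nearest TSS to the peak's midpoint, negative upstream. The strongest peak lay within 100 bp of a TSS at 66 of 80 members in replicate 1, against 66.7% of genes, and at 66 in replicate 2, against 59.4%. This is 82.5% of members in each, and at mitochondrial ribosomal protein genes the share was 84.6% and 76.9%. The median offset was −44 bp in replicate 1 and −8 bp in replicate 2, and over all genes it was −34 and −14. The peak nearest to a TSS had medians of −27 and −3 bp, against −29 and −11 over all genes. By subunit, the strongest peak was within 100 bp at 29 and 28 of the 31 40S genes and at 34 and 35 of the 46 60S genes.

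**Figure D2:**
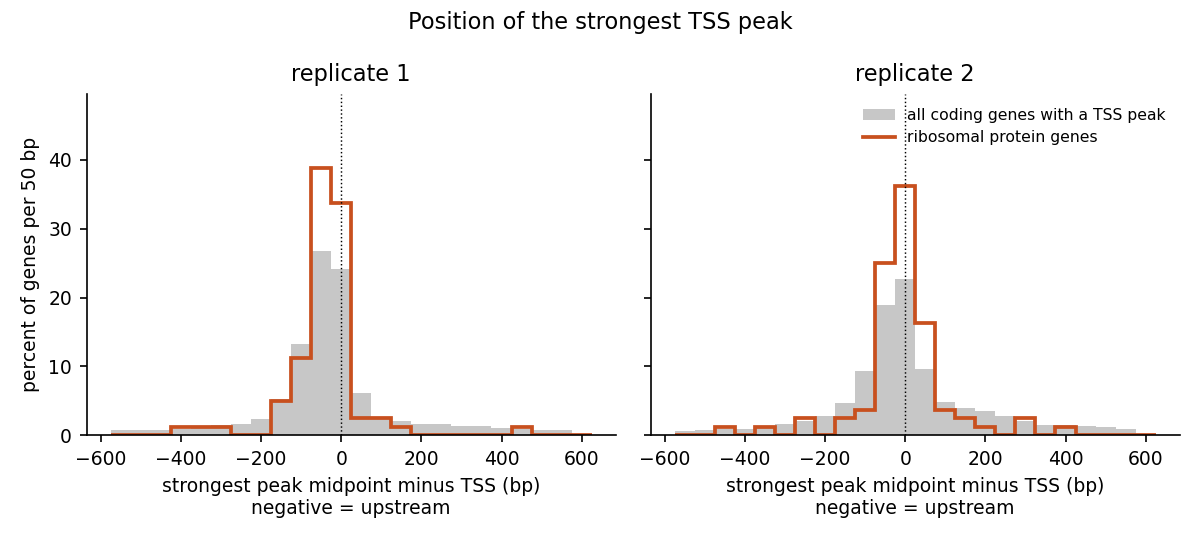
Share of genes (percent per 50 bp) by the offset of the strongest TSS peak from the nearest TSS in bp, for ribosomal protein genes (line) and all coding genes with a TSS peak (filled), in replicate 1 (left) and replicate 2 (right). At 66 of 80 members in each replicate the offset is within 100 bp, and the medians are −44 and −8 bp.

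The members furthest from their start were all of the 60S subunit. Rpl35, which lies at the tunnel exit, had its strongest peak 434 bp downstream in replicate 1 and 414 bp downstream in replicate 2. Its RefSeq start, at the TCT word printed above, lies 493 bp downstream of the GENCODE start, so both peaks were within 100 bp of the RefSeq start. Rpl5, which carries the 5S ribosomal RNA together with Rpl11, had peaks at 8 and 288 bp in replicate 1 (105 and 80) and at 68 and 308 bp in replicate 2 (64 and 78), and the stronger one was the first in replicate 1 and the second in replicate 2. Rpl6 likewise had its strongest peak at 9 bp in replicate 1 and at 289 bp in replicate 2.

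Upstream, the strongest peak of Rpl4 lay at −405 bp and −445 bp, where it was nearer to the start of the neighbouring gene Zwilch, a kinetochore gene. A second peak at Rpl4 itself had signals of 79 (15 bp) and 55 (155 bp). Rpl7 had a broad group of peaks, the strongest at −368 bp in both libraries with 112 and 88. At Rpl32 the peak at −303 bp (113) was the strongest in replicate 1, and the peak at −23 bp had 102 in replicate 1 and 75 in replicate 2.

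Among the 61 members with a RefSeq start in the table, 13 starts equalled the principal GENCODE start, 22 lay within 10 bp and 12 lay more than 100 bp away. The median RefSeq start was 13 bp further downstream. Measured from RefSeq starts the median offset of the nearest peak, as a mean of both replicates, was −41 bp, against −10 bp from all basic GENCODE starts of the 80 members with peaks. Over all genes it was −26 bp from RefSeq starts and −18.5 bp from GENCODE starts. Members thus lay further upstream than all genes by RefSeq starts and less far by GENCODE starts.

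Additional peaks within 500 bp were about as common as elsewhere. There were 2 or more TSS peaks at 52 of 80 members in replicate 1, against 62.6% of genes, and at 53 in replicate 2, against 59.7%. The members held 78 such secondary peaks in each replicate, with median signals of 47.5 and 38, or 38.1% and 47.3% of the strongest. Most lay on the gene's side of the strongest peak: 56 of 78 in replicate 1 (71.8%) and 52 of 78 in replicate 2 (66.7%), against 63.2% and 57.3% over all genes. In replicate 1, 17 of 31 40S genes and 9 of 46 60S genes had 1 peak alone, but in replicate 2 the counts were 10 and 14.

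Hotspots, the wider regions of raised cutting around the peaks, were narrower at members than over all accessible promoters, though not than at mitochondrial ribosomal protein genes. The median width at the TSS was 891.5 bp in replicate 1 and 1273 bp in replicate 2, against 1002 and 1538 bp over genes with a TSS peak in both and 857 and 1238.5 bp at mitochondrial ribosomal protein genes. The difference was not seen in the hotspot width summed within 500 bp of the principal TSS, which cannot exceed 1001 bp. As a mean of both replicates its median was 900.25 bp at members and 907.5 bp over genes with a TSS peak in both. All 80 were at the ceiling of 100 of the deposited −log10 q-value in both libraries, against 91.7% of genes in replicate 1 and 93.5% in replicate 2. The hotspot was wider in replicate 2 at 73 members, narrower at 4 and equal at 3. Among the 14247 genes with a TSS peak in both it was wider at 12748, narrower at 1366 and equal at 133, a similar split.

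The width ranged widely between members. The narrowest were Rps29 with 159 bp in both replicates, Rpl24 with 386 bp in both and Rps3a1 with 425 and 506 bp. At Rps29 the 7SL gene Rn7s1, which encodes the RNA of the signal recognition particle, starts 109 bp upstream on the other strand. The widest were Rpl7 with 2739 and 2878 bp, Rps9 with 1215 and 2754 bp and Rpl27a with 1212 and 2394 bp. Rps29 and Rpl27a were both among the 6 members with the highest signal rank, so the narrowest and one of the widest hotspots belonged to strong promoters.

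**Figure D3:**
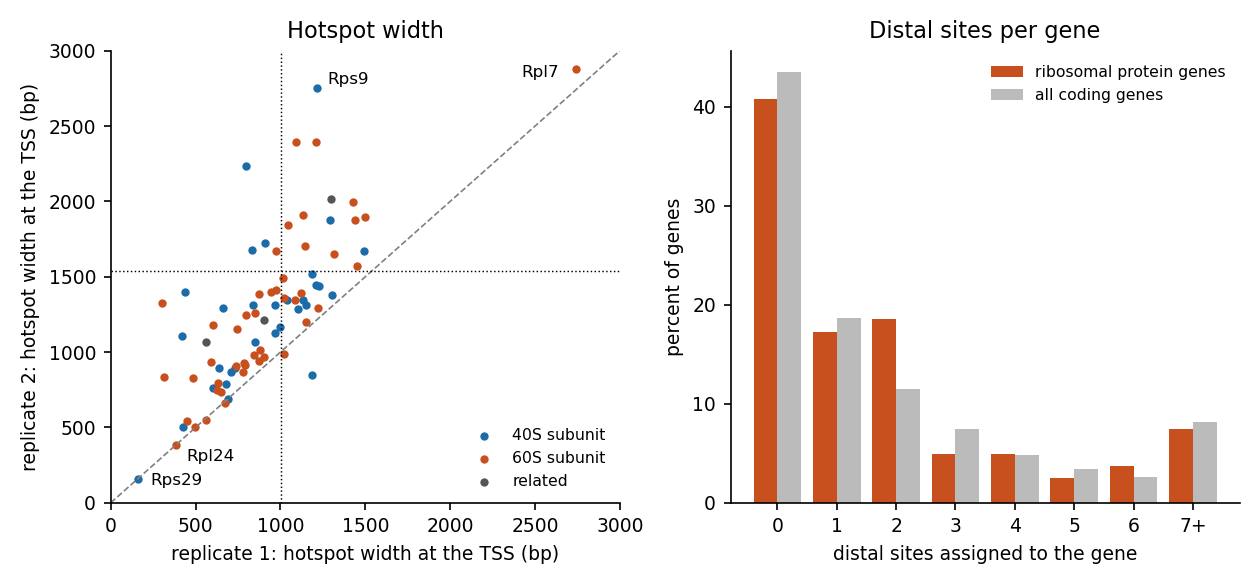
Left, width in bp of the hotspot at the TSS in replicate 1 and replicate 2 for the 80 members with peaks, with the line of equal width (dashed) and the medians of genes with a TSS peak in both replicates (dotted, 1002 and 1538 bp). Right, percent of genes by number of assigned distal sites: 33 of 81 members (40.7%) have none, against 43.5% of all coding genes.

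Some members share their promoter region with a neighbour that starts on the other strand. A divergent start lay within 1 kb upstream at 21 of 81 members, against 14.8% of all coding genes and 20.9% of those with a TSS peak in both. The neighbour was a coding gene at 12 and a noncoding gene at 9, among them Snhg9, a small nucleolar RNA host gene 98 bp from Rps2. The closest pair was Rps28 and Ndufa7, a subunit of respiratory complex I, at 10 bp. In both replicates the strongest peak was nearer to the start of a coding neighbour at Rpl4, Rpl7a, Rpl12, Rpl15, Rpl18 and Rps28. At Rpl9, Rps18, Rps25, Rps27 and Rps27a this was so in replicate 1 alone. At these 11 genes the signal cannot be given to 1 of the neighbours. Only coding starts were compared in this way. Where the neighbour was noncoding, the signal may likewise belong to either gene.

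In sequence the members were rich in CpG without being richer in G and C than other accessible promoters. Their median CpG ratio was 0.816, against 0.575 for all genes and 0.722 for genes with a TSS peak in both. It was 0.866 at 20 other TOP and elongation factor genes and 0.800 at 20 ribosome assembly genes, both described below. The median GC content of members was 57.1%, against 55.4% for all genes and 59.3% for genes with a TSS peak in both. Genes were short, with a median length of 3221 bp against 16650 bp.

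Short words were counted on the reference around the principal GENCODE start of all genes, from 200 bases before to 50 after it on either strand, except the TCT words, which were counted within 50 bases on each side. A match is a run of letters and not a bound site. The ETS word CCGGAA was present at 37 of 81 members (45.7%), against 16.9% of all coding genes and 23.5% of genes with a TSS peak in both. It was at 16 of 31 40S genes (51.6%) and 19 of 46 60S genes (41.3%). A TCT word on the gene's strand was present at 26 of 81 members (32.1%), against 13.3% of genes. On the other strand its share was 12.3%, against 13.4%, so the shares were alike there. Within 25 bases on each side the share was 18.5% against 6.72%, and within 100 bases it was 56.8% against 25.3%. The 4 TCT words can overlap each other, and a gene was counted once.

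Box A was present at 6 of 81 members, against 0.556% of genes. Among them were Rps6, Rps28, Rpl10a, Rpl17 and Rpl26, and the list differs from the RefSeq promoters printed above because the start and the window differ. The YY1 word AAGATGG was at 12.3% of members and 5.50% of genes. The Sp1 word GGGCGG was at 50.6%, between the 44.3% of all genes and the 62.3% of genes with a TSS peak in both. The NF-Y word CCAAT was at 29.6%, against 34.3%. The E-box CACGTG was at 9.88%, against 6.89%. The NRF1 word was at 2.47%, against 1.16%. The TATA word TATAAA was at 12.3%, against 10.5% of genes and 5.50% of genes with a TSS peak in both.

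Members with and without the ETS or the TCT word had medians of promoter signal within 2 units of each other. Members with the ETS word had median signals of 125.5 and 76.5, and those without had 124 and 76. Over all genes the medians were 121 and 74 with the word and 108 and 66 without it. Members with a TCT word had 126 and 76, and those without had 124 and 76. With box A the medians were 122.5 and 74.5, and without it 125 and 76. Members with the Sp1 word had 127 and 77 against 123 and 74 without it, those with the E-box 127 and 79.5 against 124.5 and 76, and those with the NF-Y word 127.5 and 76.5 against 123.5 and 75.5. With the YY1 word they had 122.5 and 76, against 125 and 76.

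**Figure D4:**
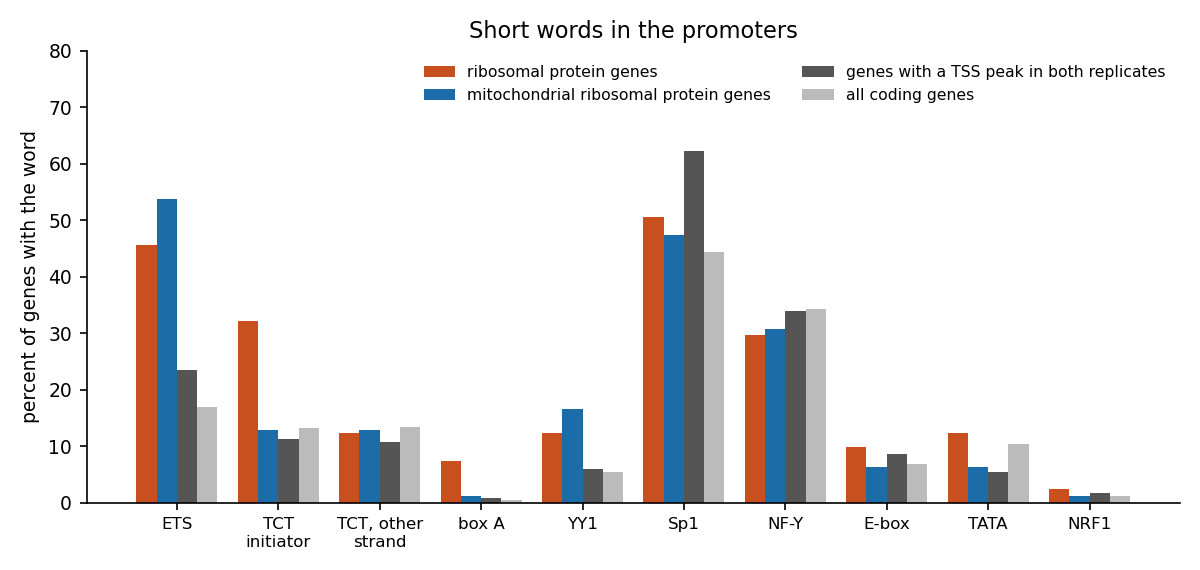
Percent of genes that hold each short word, for the 81 ribosomal protein genes, the 78 mitochondrial ribosomal protein genes, genes with a TSS peak in both replicates and all coding genes. The ETS word is at 45.7% of ribosomal and 53.8% of mitochondrial ribosomal protein genes, and the TCT word on the gene's strand is at 32.1% and 12.8%.

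Distal sites are regions with peaks of both replicates more than 2500 bp from every coding TSS, given to the nearest TSS within 100 kb. Members had 164 of them, a mean of 2.02 and a median of 1 per gene, and 33 of 81 members had none, against 43.5% of genes. The mean over all genes was 2.06. With peaks of replicate 1 alone the mean of members was 5.53, and with those of replicate 2 alone it was 11.3, against 6.88 and 11.9 over all genes. Members lie in gene-dense regions: the sequence nearest to them had a median of 19.3 kb, against 46.5 kb. Per 100 kb of that sequence they had 5.64 sites, against 2.92. Of the 164 sites, 7 were inside the member and 20.1% inside any coding gene. Members had a median length of 3221 bp, so sites over 2500 bp from every coding TSS had little room inside them. These shares were not counted over all genes.

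The 5 members with the most distal sites held 56 of the 164. Rps3, which lies at the entry of the messenger RNA channel and also acts in DNA repair, had 16. Most of these were weak, with median signals of 6 and 4.5, and 14 lay upstream between 11.7 and 25.7 kb. The strongest reached 103 in replicate 1 (8.55 kb downstream) and 50 in replicate 2 (16.7 kb upstream). Rplp1, a protein of the stalk that recruits elongation factors, had 13, all downstream, with medians of 60 and 30. Rpl14 had 10, all downstream up to 85.7 kb, with medians of 71 and 54. Rps29 had 9, with medians of 25 and 12. Over all distal sites of coding genes the medians were 45 and 23, so the sites of Rpl14 and Rplp1 were above that level and those of Rps3 far below it. Assignment to the nearest start does not show which gene a site acts on.

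Copies of ribosomal protein genes were mostly closed. Among the coding copies that the rule leaves out, Rps27l, a paralog of Rps27, had signals of 126 and 78, and Rpl36al, a copy of Rpl36a, had 131 and 81. Rpl3l, Rpl10l and Rpl39l, whose known expression is in muscle or testis, had no TSS peak in either library, and neither had the 6 coding genes with "-ps" in their symbol. Of 292 annotated ribosomal protein pseudogenes more than 1 kb from a coding start, 11 had a peak within 500 bp of their 5′ end in replicate 1 (3.77%) and 28 in replicate 2 (9.59%), and 5 in both (1.71%). Over 12215 pseudogenes the shares were 6.79%, 8.92% and 2.56%. The sources used here do not say how reads that match several copies were treated, so values at near-identical copies are uncertain.

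Other genes of protein synthesis were read in the same way. Fau, which encodes a ribosomal protein fused to a ubiquitin-like protein and is missed by the symbol rule, had 131 and 96. It was above every member in replicate 2. All 20 other TOP and elongation factor genes had a TSS peak in both replicates, with a median percentile of 78.4. The highest of these were Pabpc1, the poly(A)-binding protein, with 136 and 106 and the initiation factor Eif4b with 137 and 95, and the lowest were Eif3f with 116 and 56 and Btf3 with 109 and 76. The 20 ribosome assembly genes all had a TSS peak in both, with a median percentile of 66.4. Among them Nip7 had 136 and 89 and the nucleolar protein Ncl 139 and 86, while Pes1 had 94 and 56 and Dkc1, on chromosome X, 100 and 49.

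Genes of the mitochondrial ribosome differed from the members in level and in words. All 78 had a TSS peak in both, with a median percentile of 57.8, close to the 54.1 of all genes with peaks in both, and 54 were above 50 (69.2%). Their range was wider than that of the members, from Mrpl51 with 139 and 100 and Mrpl39 with 134 and 97 to Mrpl3 with 72 and 55 and Mrps22 with 99 and 46. The strongest peaks of the top 2 lay far from their starts, at −435 and −395 bp at Mrpl51 and at 392 and 432 bp at Mrpl39. Whether those signals belong to these genes was not tested. The mitochondrial ribosomal protein genes shared the ETS word with the members (53.8%) but held a TCT word in 12.8%, about the share of all genes. The TCT word was not particular to the members. It was at 32.1% of them, at 40% of the 20 other TOP and elongation factor genes and at 15% of the 20 assembly genes.

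**Figure D5:**
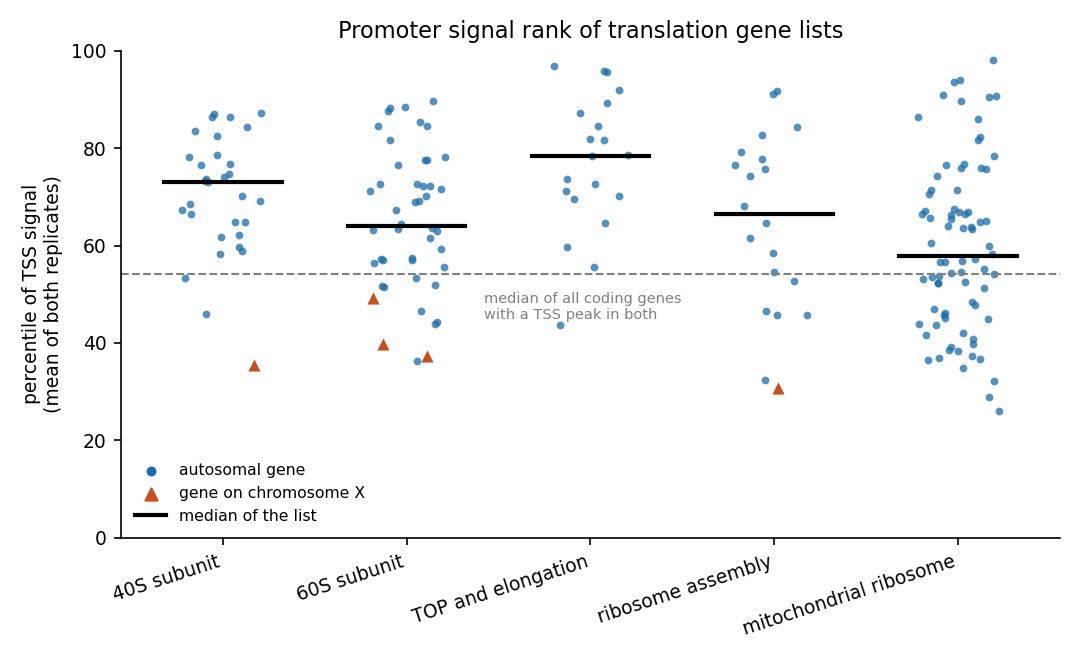
Percentile of the TSS signal, averaged over both replicates, for each gene of 5 lists (points), with the median of each list (bar) and the median of all coding genes with a TSS peak in both (dashed, 54.1). The 40S genes have a median of 73.1, the 60S genes of 64.0, other TOP and elongation genes of 78.4, assembly genes of 66.4 and mitochondrial ribosome genes of 57.8, and triangles mark genes on chromosome X.

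Across the libraries, 305818 peaks of replicate 1 and 454408 of replicate 2 were used, with median signals of 18 and 8. Read depth is unknown. The labelled tissue was checked against marker genes: a TSS peak in both replicates was present at 5 of 6 midbrain markers (Lmx1b in replicate 2 alone), at all 4 neural markers, at all 4 forebrain markers and at none of 7 markers of blood, vessel, muscle, liver or microglia. Of these 7, Pecam1 had a peak in replicate 1 alone (signal 12). Alb (6) and Myod1 (34) had one in replicate 2 alone. Peaks at these markers thus did not set midbrain apart from forebrain. In bulk tissue, accessibility in fewer cells and weaker accessibility in all cells cannot be told apart.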

How the data were processed

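DNase-seq peaks and hotspots of 2 replicates were used as deposited on mm10, called in each replicate on its own, as the deposited records of the files state. The signal of each deposited peak is the authors' own value, and the deposited q-value of each hotspot is on a −log10 scale with a ceiling of 100. The deposited hotspot score was not used. Aligner, caller, filters and normalization: not given in the sources used here. Depth is unknown, so no interval was computed. Duplicate rows (51 and 106) were counted once. TSSs were those of GENCODE M21 basic transcripts on GRCm38.p6, the same assembly as mm10. A TSS peak overlapped the 500 bp on either side of a TSS, and the hotspot at the TSS was the one that overlapped its strongest peak. Percentiles were ranked within a replicate. The members and lists were chosen with earlier results of these data known. Named genes followed a rule: the 6 highest and 6 lowest members by percentile, those with no peak, on chromosome X or outside the subunits, the extremes of width, distal sites, offset and replicate difference, and the 2 highest and 2 lowest of each other list. Some genes that the rule takes are left out of the text. Examples of shared position, replicate rank, neighbours and words were named after their values were seen. Functions were tested on simulated peaks. Python 3.11.15, pandas 2.3.3, numpy 2.4.6, pysam 0.24.0 and matplotlib 3.10.9 were used.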

Additional observations from a re-analysis of the deposited data

How the results depend on the processing

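Of 43 alternative values, 37 stayed close to the reported ones and 6 moved. Counts, shares and distal sites per gene stayed close if they changed by no more than a fixed factor. Other values stayed close if they changed by less than the standard deviation between the 2 replicates. For hotspot width this was 270 bp, a wide margin beside medians of 1056.5 bp for members and 1289 bp for all genes with peaks in both. Only offsets could change sign, and none did. The count of members with a TSS peak in both replicates ranged from 68 (peaks of both libraries overlapping by 75 bp) to 80, over windows, TSS sets, stronger peaks, hotspots and single libraries. The median percentile ranged from 64.9 without replicate 1 to 71.3 without replicate 2. The median offset of the nearest peak, −10 bp as a mean of both replicates, was −3 bp without replicate 1 and −27 bp without replicate 2. It was −41 bp from RefSeq starts, an alternative added after seeing the data. Over all genes it was −18.5 bp as reported and −26 bp from RefSeq starts, so the order of members and all genes changed. Distal sites per member, 2.02 for sites in both libraries, were 5.53 without replicate 2 and 11.3 without replicate 1, since sites then need no peak in the other library. The share with a TCT word was 18.5% within 25 bases and 56.8% within 100 bases, and 29.6% at the furthest upstream TSS, against 32.1% as reported. All settings for this word were chosen after seeing the data. The width of the hotspot had a median of 891.5 bp without replicate 2 and 1273 bp without replicate 1. Summed within 500 bp of the principal TSS it was 900.25 bp, against 907.5 bp over genes with a TSS peak in both, so members were not clearly narrower by that measure. No paired analysis was possible because there is 1 group. Depth, which is unknown, limits what a missing peak means.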
